A study of Mus musculus with 9 samples.

Results

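The comparison described here is that of Dnmt1 knockout (1KO) cells with wild-type (WT) cells on day 4 of differentiation. All 15074 named genes and all 38385 repeat copies of the deposited tables were taken, and for each the difference was computed as log2(FPKM + 1) in the 1KO library minus log2(FPKM + 1) in the WT library. FPKM counts the reads over a transcript or repeat copy relative to its length and to the depth of the library. WT cells were J1 mouse embryonic stem cells (ESCs), and 1KO cells were a Dnmt1-/- line made earlier from J1 ESCs. Each line was grown with LIF and serum on mitomycin C-treated fibroblast feeders, freed of most feeders by attachment to gelatin, kept as embryoid bodies in LIF-free medium for 1 day and then grown attached for 3 days. The comparison uses 2 of the 9 libraries of the series, which also holds day 0 and day 2 of the same lines and a clone, 1KO+1CI, that carries a catalytically inactive DNMT1 transgene under the CAG promoter in the 1KO background. There was 1 library for each line and day. No value therefore has a replicate error, no test was run, and a gene or copy is called higher or lower when its difference is 1 or more, or -1 or less, on the log2(FPKM + 1) scale, here termed 2-fold.

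DNMT1 copies the methylation of CpG sites onto the new strand after DNA replication, and in its absence most methylation is lost as cells divide. In ESCs, methylation is known to help silence IAP retrotransposons, a set of germ cell genes, and 1 parental allele of imprinted genes. Withdrawal of LIF moves ESCs from the naive state towards the formative epiblast, in which DNMT3A and DNMT3B normally add methylation, and signalling by NODAL, WNT and FGF then drives the formation of the primitive streak.

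Low values of a repeat copy are whole multiples of what 1 read is worth, which held for 84.6% of the 32203 copies above 0.2 FPKM in every library. From these steps the 1KO library was 1.08 times as deep as the WT library, and the 9 libraries lay between 0.971 and 1.34 times the WT depth. The median-ratio scaling factor between the libraries was 1.005 for genes. Of 15 housekeeping genes, 14 lay within 2-fold. The exception was Gapdh, whose day 4 level was 168 FPKM in the 1KO library against 7.85 in WT and 12.7 in 1KO+1CI, far under Eef2 at 1126 and 1159 FPKM in WT and 1KO cells. Gapdh has many processed pseudogenes whose reads the counting could split, so its value is uncertain. The feeder fibroblast list had 1 of 21 measured members 2-fold higher, 16 on the higher side, a median difference of 0.12 and a summed level of 253.5 FPKM in WT and 292 FPKM in 1KO cells. Its defining collagen Col1a1 was on the other side, at 5.07 and 3.76 FPKM. In such bulk samples, fewer cells of a type and less RNA per cell cannot be told apart.

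Dnmt1 itself, the targeted gene, was at 74.0 FPKM in WT and 13.7 in 1KO cells on day 0, at 80.4 and 17.4 on day 2, and at 48.5 and 12.3 on day 4. The 1KO library was the lower on every day, though reads over the gene remained, and which part of Dnmt1 the line lacks is not given in the labels or methods read here. The study describes 1KO cells as wholly without DNMT1 protein, and RNA reads do not measure protein. In 1KO+1CI cells, whose transgene adds to the count, Dnmt1 stood at 315, 129 and 158 FPKM on the 3 days. The other de novo and maintenance components behaved unevenly at day 4. Dnmt3a, a de novo methyltransferase, was lower by more than 2-fold, at 39.7 FPKM in WT and 18.3 in 1KO cells. Dnmt3b was at 390 and 328 FPKM, its cofactor Dnmt3l at 42.9 and 41.0, and Uhrf1, which guides DNMT1 to hemimethylated DNA, at 90.6 and 107. On day 0 Dnmt3l had been at 41.3 FPKM in WT and 203 in 1KO cells, a difference of 2.27 that had closed to -0.06 by day 4. Of the 22 measured genes of DNA methylation and demethylation, 2 were lower (Dnmt1 and Dnmt3a) and none was higher.

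Across all genes, 251 were 2-fold higher in 1KO cells (1.67% of those measured) and 89 were 2-fold lower (0.59%). These shares are the background for each count of list members called on day 4. The median difference over all genes was 0.0047, and 87.1% of genes lay within 0.5 of 0. The difference was above 0 for 50.7% of all genes, the background for each count of members on the higher side on day 4. Past 4-fold, 40 genes were higher and 6 were lower. Of the 3281 genes under 1 FPKM in WT cells 83 were higher (2.53%), of the 3664 at 1 to 5 FPKM 101 (2.76%), and of the 679 at 100 FPKM or more 4 (0.589%), with none lower in the last group. Choosing genes for a higher 1KO value by itself favours a low WT value. The gene table lists no value of 0, the smallest being 0.0013 FPKM, so genes without reads in some library appear to be left out of it.

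**Figure D1:**
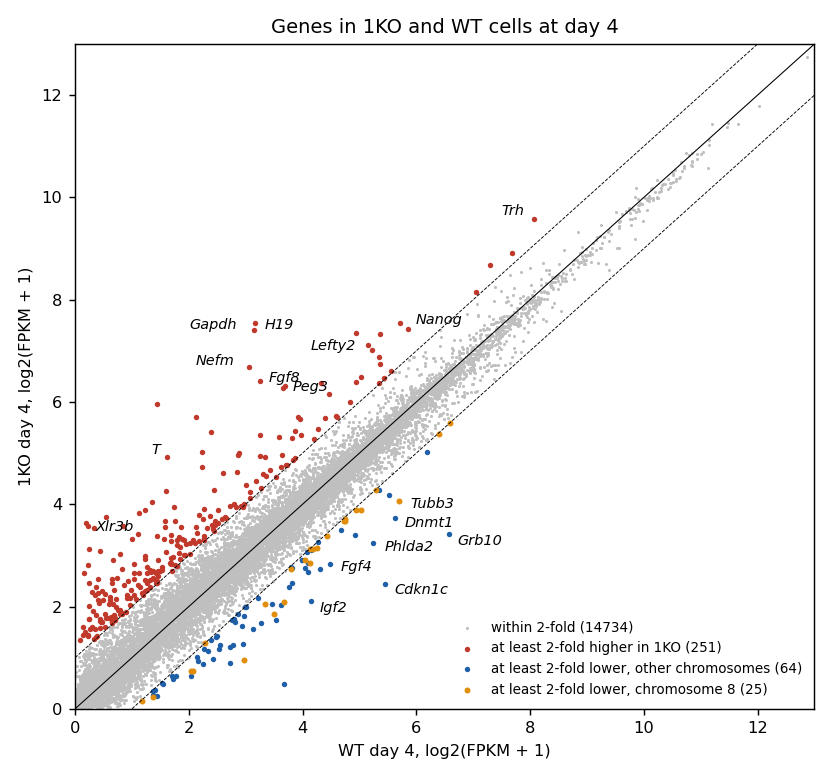
Level of each gene in WT cells (x axis) and 1KO cells (y axis) on day 4, both as log2(FPKM + 1), with 1 point per gene, the line of equal levels and dashed lines at a difference of 1. Red points are the 251 genes at least 2-fold higher in 1KO cells, and the 89 lower genes are split into 25 on chromosome 8 (orange) and 64 on other chromosomes (blue).

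Genes of the primitive streak, the site at which mesoderm and endoderm form in the embryo, made up the list that differed most. Of 9 measured members, 7 were 2-fold higher in 1KO cells, none was lower, and the median difference was 1.70 against 0.0047 over all genes. T (brachyury), the T-box factor that marks the streak, was at 2.07 FPKM in WT and 29.2 in 1KO cells. That is a 14.1-fold ratio, with an exact 95% interval of 11.4 to 17.7 that covers counting error only, from about 89 and 1359 reads estimated from the transcript length. Mixl1, a homeobox gene of the streak, was at 0.581 and 6.50 FPKM (11.2-fold). Fgf8, a ligand needed for cells to leave the streak, was at 8.51 and 84.5 FPKM. Eomes, a T-box factor of the endoderm and anterior mesoderm, was at 8.51 and 29.9 FPKM. The activin antagonist Fst was at 14.1 and 51.1, the epithelial-mesenchymal transition factor Snai1 at 1.59 and 5.49, and the homeobox gene Evx1 at 0.347 and 2.30 FPKM. Nodal, at 40.9 and 76.0 FPKM, and Gsc2, at 0.420 and 1.48, were on the same side but did not reach 2-fold. Gsc2 is a different gene from Gsc, which is on the list but was not measured.

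On the earlier days most of these genes were close in both lines. For T the difference was 0.35 on day 0 and 0.22 on day 2, for Mixl1 -0.04 and 0.32, and for Eomes 0.19 and 0.06. On day 2 none of the 9 genes was 2-fold apart, and the median of the list was 0.32. The level of T in WT cells was 0.782, 0.282 and 2.07 FPKM on days 0, 2 and 4, so WT cells held more T on day 4 than before, at a far lower level than 1KO cells. On day 0 Fst was already higher, at 2.32 FPKM in WT and 8.9 in 1KO cells, and Fgf8 was on the other side, at 9.17 FPKM in WT and 3.62 in 1KO cells. On that day the feeder fibroblast list was also higher, with 10 of 21 members past 2-fold and a summed level of 421 FPKM in WT and 808 in 1KO cells, and its part in the day 0 values was not tested. The 1KO+1CI library lay near the 1KO library at day 4, with T at 27.2, Mixl1 at 6.66, Fgf8 at 63.0 and Eomes at 38.5 FPKM.

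**Figure D2:**
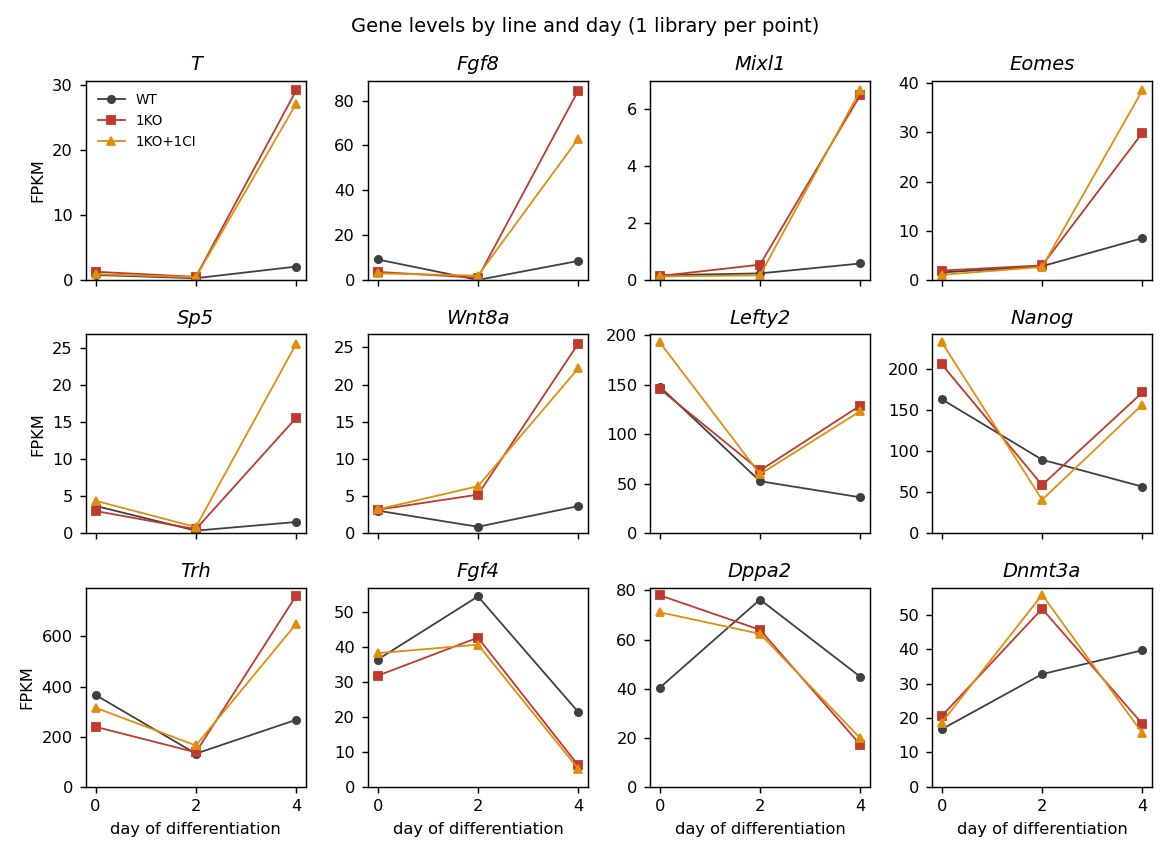
FPKM (y axis) of 12 genes on days 0, 2 and 4 (x axis) in WT (grey circles), 1KO (red squares) and 1KO+1CI (orange triangles) cells, with 1 library per point and lines joining the days of a line. At day 4, T stands at 29.2 FPKM in 1KO against 2.07 in WT cells, while Fgf4 and Dppa2 stand lower in 1KO than in WT cells.

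Of 27 measured genes of the Wnt pathway list, 6 were 2-fold higher and none was lower, against 1.67% and 0.59% of all genes. The other 21 lay within 2-fold, and the median difference was 0.32. T is counted on this list too, as a Wnt target. Sp5, a direct target of Wnt signalling, was at 1.54 FPKM in WT and 15.6 in 1KO cells, a 10.1-fold ratio. The ligands Wnt8a, Wnt5b and Wnt3 were at 3.67 and 25.5, 1.34 and 4.7, and 3.33 and 8.44 FPKM. The receptor Fzd10 was at 4.96 and 12.1 FPKM, and the feedback inhibitor Axin2 at 5.83 and 11.7, at a difference of 0.89. Wnt8a was the only one of these ligands that was already 2-fold apart on day 2, at 0.894 FPKM in WT and 5.21 in 1KO cells.

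In the Nodal pathway list, 2 of 22 genes were higher and none was lower, against 1.67% and 0.59% of all genes. The first was Fst, and the second was the Nodal antagonist and target Lefty2, at 36.4 FPKM in WT and 129 in 1KO cells. Its paralog Lefty1 was at 126 and 81.1 FPKM, on the other side. In the BMP list, 1 of 23 was higher, the ligand Bmp7 at 0.583 and 2.47 FPKM. In the FGF-ERK list Fgf8 was higher and Fgf4, which ESCs secrete, was lower, at 21.4 FPKM in WT and 6.11 in 1KO cells, and the other 20 members lay within 2-fold.

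Among the genes that follow the streak, the retinoic acid-degrading enzyme Cyp26a1 was at 1.5 FPKM in WT and 5.57 in 1KO cells, and the node and mesoderm factor Lhx1 at 0.252 and 1.56. The blood and vessel factor Etv2 was lower, at 6.84 and 2.5 FPKM. The other 12 of 15 measured genes of nascent and presomitic mesoderm lay within 2-fold. In the definitive endoderm and axial mesoderm list, 2 of 12 were higher, namely Foxa2, a forkhead factor, at 0.503 and 2.42 FPKM, and Trh, which encodes a hormone precursor, at 267 and 762 FPKM. Trh was 1 of the 4 genes at 100 FPKM or more in WT cells that were higher. Of 24 measured genes of primitive and visceral endoderm, 21 lay on the higher side, against 50.7% of all genes, with a median difference of 0.34. Of the 24, 4 were 2-fold higher and none was lower, against 1.67% and 0.59% of all genes. They were Foxa2 again, the proteoglycan gene Srgn (0.188 and 3.04 FPKM), the endocytic receptor gene Cubn (0.101 and 1.71) and the laminin gene Lama1 (1.11 and 3.45). The lineage factors did not reach 2-fold on the log2(FPKM + 1) scale, which understates a change in either direction at such low levels. Gata6 was at 0.194 and 0.789 FPKM and Sox17 at 0.305 and 0.440, each under 1 FPKM in both libraries. Gata4 was on the other side, at 1.56 and 0.96.

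Genes of pluripotency split. In the naive list, 2 of 14 were higher and 4 were lower. Nanog, a core factor of ESCs that is also present in the posterior epiblast and is counted on this list alone, was at 56.8 FPKM in WT and 171 in 1KO cells. The nuclear receptor gene Esrrb was at 3.81 and 9.13 FPKM. Fgf4, the Kruppel-like factor gene Klf2 (16.6 and 6.20), Zfp42 (31.6 and 13.9) and Tcl1 (1.59 and 0.198) were lower. Klf2 and Zfp42 lie on chromosome 8, whose genes were lower as a whole, as described further on. On day 2 Nanog had been on the other side, at 89.5 FPKM in WT and 58.8 in 1KO cells. In the core list, which does not hold Nanog, none of 13 was higher and 2 were lower, the neighbouring genes Dppa2 (44.8 and 17.1 FPKM) and Dppa4 (71.6 and 31.3). Pou5f1, which encodes OCT4, was at 1008 and 745 FPKM, and Sox2 at 83.5 and 59.1, each within 2-fold.

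Of 22 formative epiblast genes, 1 was higher (Wnt3) and 1 was lower (Dnmt3a), with a median of -0.11. Fgf5, the usual marker of this state, was at 48.3 FPKM in WT and 86.4 in 1KO cells, and Otx2 at 58.6 and 59.4. On day 2 Fgf5 had stood 2-fold apart, at 2.52 and 14.7 FPKM. None of 12 measured genes of the neural list was higher and 2 were lower. These were the homeobox gene Gbx2 (3.75 and 0.831 FPKM) and the neuronal tubulin gene Tubb3 (50.9 and 15.7), which lies on chromosome 8. The neurofilament genes Nefm and Nefl, which are not on this list, were higher, at 7.37 and 102 and at 39.9 and 159 FPKM. Of 28 p53 targets, none was 2-fold apart. None of 9 measured Hox genes was either, but their summed level was only 2.77 FPKM in WT and 2.67 in 1KO cells. A gene under 1 FPKM in WT cells cannot be called lower on this scale. In the trophoblast list 4 of 17 were higher and 1, Phlda2, was lower, against 1.67% and 0.59% of all genes. Of the 4, Peg10 and Eomes belong to other lists as well, and the others were Plet1 (1.21 and 4.24 FPKM) and Tfap2c (1.27 and 3.79).

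Imprinted genes held several of the widest differences in either direction. H19, a maternally expressed noncoding RNA, was at 7.98 FPKM in WT and 184 in 1KO cells, a 23.1-fold ratio (interval 20.9 to 25.7, counting error only). Mir675, the hairpin that lies within H19, was at 1.71 and 61.6 FPKM. Its WT value rests on about 3 reads. Igf2, the paternally expressed growth factor gene next to H19, was lower, at 16.7 and 3.30 FPKM. Grb10, an adaptor of growth factor receptors, was at 94.0 and 9.66 FPKM, 9.72-fold lower. The cell cycle inhibitor gene Cdkn1c was at 42.7 and 4.45 FPKM, 9.59-fold lower, and the placental growth gene Phlda2 at 36.9 and 8.41 FPKM. Cdkn1c, Phlda2 and Igf2 lie in a pair of neighbouring imprinted domains on chromosome 7.

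As a list, the 27 measured paternally expressed genes had a median difference of 0.72, with 24 on the higher side, 4 past 2-fold and 1 lower. The 4 were the zinc finger gene Peg3 (11.6 and 76.5 FPKM), Plagl1 (1.98 and 11.7), the retrotransposon-derived Peg10 (51.1 and 184) and Peg12 (0.773 and 2.61). A second tier sat just under the threshold. Sgce, Nnat, Impact, Snrpn, Snurf and Mcts2 had ratios of 1.80 to 2.16. For Snrpn the levels were 166 and 302 FPKM, and for Impact 51.1 and 95.1. Snrpn and Snurf overlap, so their reads cannot be told apart. Peg3 differed more on day 4 (2.62) than on day 2 (1.41) or day 0 (0.78), and Plagl1 likewise (2.09, 1.2 and 0.95). The 17 measured maternally expressed genes had a median of 0.03, with 3 higher (H19, Asb4 and Mirg) and 3 lower. Meg3, Rian and Mirg, noncoding RNAs of 1 domain on chromosome 12, were at 23.9 and 47.8, 118 and 209, and 12 and 26.2 FPKM. Igf2r, at 15.3 and 14.8 FPKM, and Gnas, at 141 and 133, differed little.

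**Figure D3:**
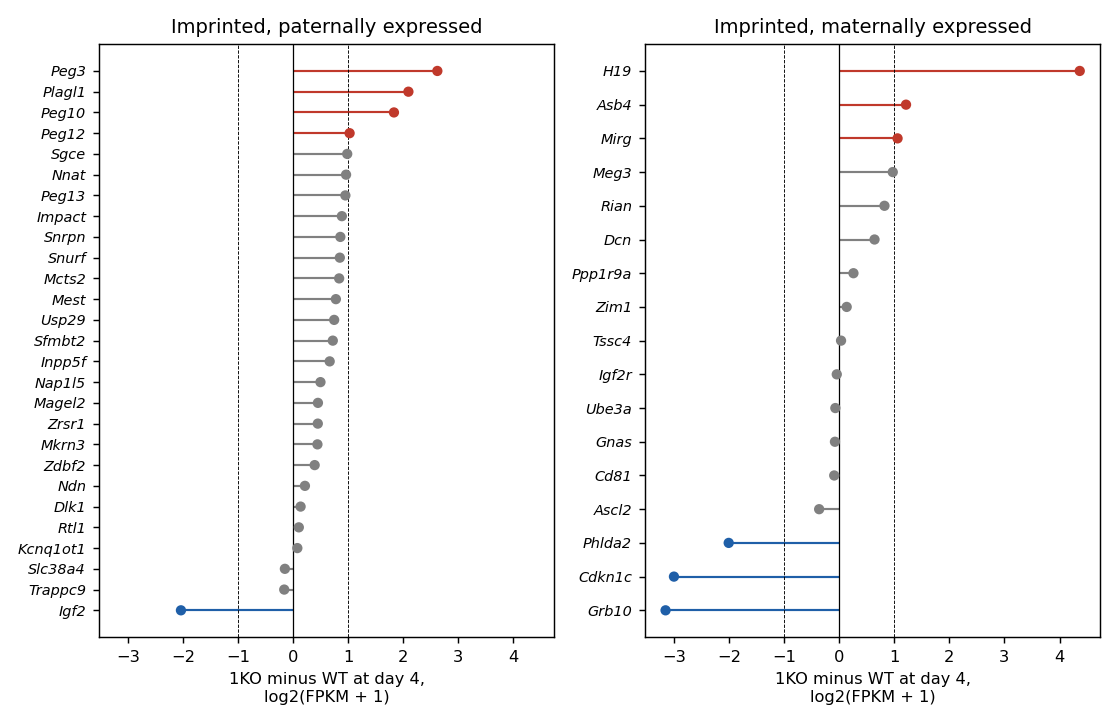
Difference between 1KO and WT cells on day 4 in log2(FPKM + 1) (x axis) for each measured imprinted gene, with dashed lines at -1 and 1 and 1 point per gene. Of 27 paternally expressed genes (left), 24 lie above 0 and Igf2 lies at -2.04, while the 17 maternally expressed genes (right) run from Grb10 at -3.15 to H19 at 4.37.

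MicroRNA loci in this table count reads of polyadenylated RNA over the hairpin, not mature microRNA. Of 124 such loci, 14 were higher (11.3%, against 1.67% of all genes) and 9 were lower (7.26%, against 0.59%). These loci are short and hold few reads, and for 10 of the 23 called the exact 95% interval of the ratio, for counting error only, included 1. Mir692-2 and Mir692-3, both called lower, have identical values. Mature sequences are shown, from RefSeq (GRCm38.p6), for 2 loci inside imprinted domains that were higher and for Mir363, the lower locus on chromosome X, 5′ to 3′ with the seed (bases 2 to 8) in capitals.
mmu-miR-675-5p: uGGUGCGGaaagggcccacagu
mmu-miR-675-3p: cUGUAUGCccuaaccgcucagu
mmu-miR-410-5p: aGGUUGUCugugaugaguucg
mmu-miR-410-3p: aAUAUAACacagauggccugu
mmu-miR-363-3p: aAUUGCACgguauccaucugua
No seed is shared among these 5 sequences. Mir410, in the same imprinted domain as Meg3 and Mirg, was at 1.19 FPKM in WT and 13.2 in 1KO cells, from about 2 and 24 reads. Mir363 was at 16.0 and 5.36 FPKM, from about 25 and 9 reads. The deepest fall of all genes with at least 1 FPKM was that of Mir6516, at 11.7 and 0.404 FPKM, which rests on about 27 reads and 1 read.

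A further set of genes differed on every day. Of the 251 genes higher on day 4, 56 (22.3%) were also 2-fold higher on day 0, a day on which 2.24% of all genes were higher and 1.55% lower. On day 2, 74 (29.5%) were higher, against 1.6% of all genes higher and 0.663% lower. On all 3 days 40 were higher, and 161 were higher on day 4 alone. Of the 89 lower genes, 12 were also lower on day 0 and 10 on day 2, and 4 were lower on all 3 days, namely Dnmt1, Igf2, Grb10 and As3mt. The libraries of these days are separate from those of day 4, but the lines are the same, so a difference fixed between the lines would appear on each day.

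The 40 persistent genes included 11 on chromosome X and 3 on chromosome Y. Of all 15074 measured genes, 554 were on chromosome X and 5 on chromosome Y. The germ cell gene Xlr3b was at 0.177 FPKM in WT and 10.9 in 1KO cells on day 4, with about 6 and 389 reads. Its neighbour Xlr3a was at 0.174 and 5.98, although these near-identical copies can share reads and each is uncertain. Nxf3, an X-linked RNA export factor gene of the testis, was at 0.144 and 11.4 FPKM. Gpat2, a mitochondrial acyltransferase gene of the piRNA pathway, was at 0.455 and 12.5, and Fkbp6, another piRNA pathway gene, at 0.359 and 7.53. The meiotic genes Rec114 (0.108 and 5.29 FPKM) and Hormad2 (0.285 and 2.58), the testis-type ribosomal protein gene Rpl39l (3.67 and 31.4) and the mitochondrial carrier gene Slc25a31 (1.06 and 6.16) were also in the set. On chromosome Y, the ubiquitin-activating enzyme gene Uba1y was at 0.792 and 10.9 FPKM and Ddx3y at 3.84 and 14.1, whereas Eif2s3y was at 29.8 and 35.7. Nefm, a neurofilament gene, and A230070E04Rik, which overlaps it, were at 7.37 and 102 FPKM and at 3.36 and 51.2. Their differences grew from 1.45 and 1.34 on day 0, and their reads at the overlap cannot be told apart.

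Of 36 measured germ cell genes known to be silenced by promoter methylation, 16 (44.4%) were 2-fold higher on day 0 and 2 lower, against 2.24% and 1.55% of all genes. On day 2, 14 (38.9%) were higher, against 1.6% of all genes. On day 4, 3 (8.33%) were higher, against 1.67%, namely Fkbp6, Slc25a31 and Hormad2, and 2 were lower (Tdrd1 and Meioc). The list median was 0.69, 0.64 and 0.30 on days 0, 2 and 4, and the difference between the days was not tested. Dazl, an RNA-binding protein gene of germ cells, was at 2.30 FPKM in WT and 10.0 in 1KO cells on day 2 and at 2.11 and 2.10 on day 4. Mael, of the piRNA pathway, went from 2.57 and 8.03 FPKM to 8.63 and 7.56, its WT level having risen. Taf7l, a testis transcription factor gene, went from 0.363 and 5.76 to 1.68 and 3.28. In the Rhox homeobox cluster on chromosome X, Rhox6 and Rhox9 had been at 4.04 and 28.2 and at 4.13 and 19.9 FPKM on day 0 and were at 1.21 and 3.08 and at 2.17 and 2.41 on day 4. On day 2 both had been on the other side, at 8.44 and 5.58 and at 8.74 and 4.66 FPKM. Rhox13 was past 2-fold on day 4 (0.569 and 4.51). In the list of Rhox and Xlr genes, 4 of 8 measured members were 2-fold higher on day 4, and all 8 lay on the higher side. The median of that list was 2.05, 0.89 and 1.35 on days 0, 2 and 4.

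Promoter sequences are shown for 3 genes that were higher on all days, for T, which was higher on day 4 alone, and for Grb10, the gene with the deepest fall among those at 20 FPKM or more. Each is the RefSeq window (GRCm38.p6) from 250 bases before to 50 after a transcript start, on the strand of the gene, with CpG sites in capitals.
Xlr3b, chrX:73191929-73192228, plus strand: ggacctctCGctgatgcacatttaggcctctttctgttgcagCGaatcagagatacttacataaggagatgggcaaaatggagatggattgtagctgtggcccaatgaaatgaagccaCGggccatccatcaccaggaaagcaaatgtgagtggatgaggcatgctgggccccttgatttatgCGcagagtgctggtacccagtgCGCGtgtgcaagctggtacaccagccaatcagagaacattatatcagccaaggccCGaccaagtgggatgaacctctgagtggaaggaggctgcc
Gpat2, chr2:127424949-127425248, plus strand: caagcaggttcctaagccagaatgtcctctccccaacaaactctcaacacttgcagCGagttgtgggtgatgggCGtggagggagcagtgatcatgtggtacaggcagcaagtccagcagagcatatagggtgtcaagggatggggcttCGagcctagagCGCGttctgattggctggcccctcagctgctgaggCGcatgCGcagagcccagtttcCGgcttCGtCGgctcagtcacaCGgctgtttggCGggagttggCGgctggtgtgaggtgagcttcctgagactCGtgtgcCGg
Fkbp6, chr5:135349995-135350294, minus strand: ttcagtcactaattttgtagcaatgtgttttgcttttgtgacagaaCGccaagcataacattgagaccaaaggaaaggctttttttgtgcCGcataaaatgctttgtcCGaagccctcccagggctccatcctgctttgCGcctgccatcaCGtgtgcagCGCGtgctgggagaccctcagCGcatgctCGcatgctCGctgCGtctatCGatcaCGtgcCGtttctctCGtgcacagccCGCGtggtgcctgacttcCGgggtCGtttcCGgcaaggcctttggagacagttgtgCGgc
T, chr17:8434173-8434472, plus strand: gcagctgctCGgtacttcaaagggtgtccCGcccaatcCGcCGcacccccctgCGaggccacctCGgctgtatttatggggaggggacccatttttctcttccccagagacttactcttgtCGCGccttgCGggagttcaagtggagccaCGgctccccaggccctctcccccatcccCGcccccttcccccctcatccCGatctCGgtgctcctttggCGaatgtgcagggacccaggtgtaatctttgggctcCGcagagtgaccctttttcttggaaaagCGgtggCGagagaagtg
Grb10, chr11:12037371-12037670, minus strand: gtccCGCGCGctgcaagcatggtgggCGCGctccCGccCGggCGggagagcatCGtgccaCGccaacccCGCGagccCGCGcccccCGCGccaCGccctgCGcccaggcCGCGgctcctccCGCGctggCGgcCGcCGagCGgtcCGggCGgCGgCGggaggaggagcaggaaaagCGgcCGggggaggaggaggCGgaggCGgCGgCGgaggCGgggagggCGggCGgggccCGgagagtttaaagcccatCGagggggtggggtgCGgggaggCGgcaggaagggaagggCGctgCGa
These windows held 7 CpG sites in Xlr3b, 15 in Gpat2, 21 in Fkbp6, 17 in T and 45 in Grb10. The median over the 27025 windows of the whole annotation, which include genes not measured here, was 7, with quartiles of 3 and 21. Of these windows, 98.1% had fewer CpG sites than that of Grb10. Where a gene has more than 1 window the first listed was used. The letters CACGTG, an E-box that itself holds a CpG, occurred in 7.24% of all windows and at 2 places in that of Fkbp6. GGCGGGA, a sequence bound by E2F factors, was searched on both strands and occurred in 11.4% of all windows, at 1 place in those of Gpat2 and T and at 3 in that of Grb10. The T-box letters AGGTGTGA were in 1.27% of all windows, the TCF/LEF letters CTTTGAT in 3.72%, the CRE letters TGACGTCA in 1.88% and the TATA box letters TATAAA in 14.2%, and none of these was in the 5 windows shown. A comparison of CpG content between the called genes and the rest was void, because too few genes had a window. The share with a window was 70.9% of the higher genes, 61.8% of the lower genes and 77.9% of the 15074 measured genes. Methylation was not measured in these libraries.

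Genes of MHC class I antigen presentation and GTPases induced by interferon were also among the higher genes, in groups chosen after their values were seen. Of 19 antigen presentation genes, 5 were 2-fold higher and none was lower, against 1.67% and 0.59% of all genes. Their median difference was 0.74. The immunoproteasome gene Psmb8 was at 6.32 FPKM in WT and 30.2 in 1KO cells, the peptide-loading genes Tapbp and Tap2 at 11 and 38.7 and at 2.62 and 10.8, the peptidase gene Erap1 at 4.30 and 11.1, and H2-K1 at 45.9 and 96.4. The partner chain gene B2m, at 26.9 and 45.5, did not reach 2-fold. Of 10 measured guanylate-binding and immunity-related GTPases, 5 were higher, namely Gbp3, Gbp2b, Gbp2, Gbp7 and Irgm1. Members of the Gbp family are similar in sequence and can share reads. In the interferon response list, 4 of 18 were higher (Ifi35, Zbp1, Isg15 and Irf1) and none was lower, with a median of 0.45, and Irf1, the transcription factor gene, was at 27.7 and 63.0 FPKM. On day 0 several stood on the other side, with Gbp2 at 32.0 FPKM in WT and 8.96 in 1KO cells and Psmb8 at 16.0 and 7.29.

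The lower genes were concentrated on chromosome 8, and the shift covered the chromosome. The 696 chromosome 8 genes with at least 1 FPKM in either library had a median difference of -0.50 and quartiles of -0.67 and -0.27, and 620 of them (89.1%) were below 0. The medians of the 18 other autosomes lay between -0.02 and 0.04. The same median was -0.49 on day 0 and -0.50 on day 2. In 4 consecutive segments with equal numbers of these genes it was -0.43, -0.51, -0.49 and -0.52. For chromosome 8 genes at 5 FPKM or more in WT cells the median ratio of 1KO to WT was 0.669, against 0.984 for genes of the other chromosomes. Of the 89 lower genes 25 (28.1%) were on chromosome 8, which held 5.37% of all genes, and of the 20 lower genes at 20 FPKM or more in WT cells it held 10. These include the DNA polymerase gene Polb (20.6 FPKM in WT and 9.46 in 1KO cells), the immediate-early gene Ier2 (83.7 and 40.2) and Dhodh, of pyrimidine synthesis (25.9 and 12.1). Without chromosome 8, a comparison added after the values were seen, 64 genes were lower and 247 were higher. The number of copies of chromosome 8 in the lines was not measured, and its part in these differences was not tested.

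**Figure D4:**
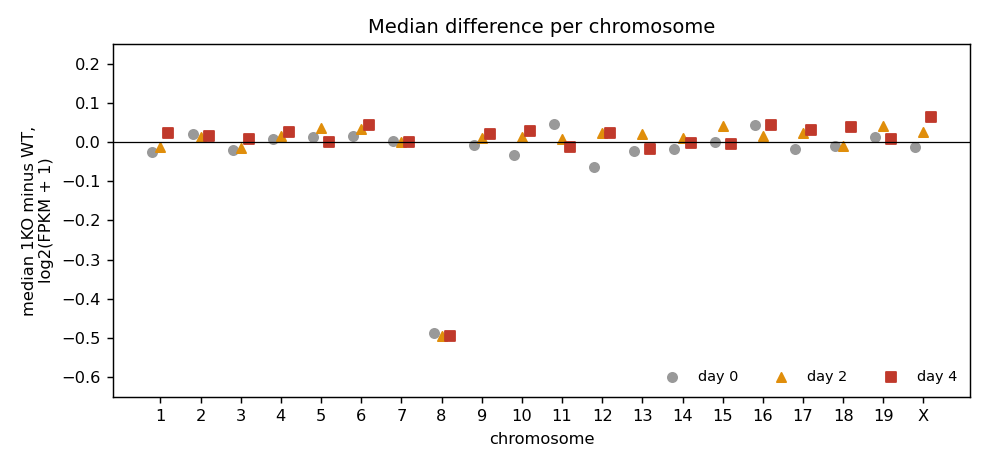
Median difference between 1KO and WT cells in log2(FPKM + 1) (y axis) over the genes of each chromosome (x axis) with at least 1 FPKM in either day 4 library, for day 0 (grey circles), day 2 (orange triangles) and day 4 (red squares). Chromosome 8 lies at -0.49, -0.50 and -0.50, and the other autosomes lie near 0.

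The sex chromosomes stood apart in the other direction. Of 554 X-linked genes, 34 (6.14%) were higher and 1 was lower (Mir363), against 1.67% and 0.59% of all genes, while the X median over expressed genes was only 0.06. Beside the germ cell genes, those higher on day 4 and within 2-fold before included the retrotransposon-derived Rtl8c (1.35 and 13.8 FPKM) and the apelin gene Apln (1.36 and 6.62). The glypican gene Gpc3, at 18.2 and 43.3 FPKM, was also higher on day 2. Of 5 genes on chromosome Y, 3 were higher. Xist was at 0.305 and 0.336 FPKM.

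Among repeats, 2597 of 38385 copies were 2-fold higher in 1KO cells (6.77%) and 1445 were lower (3.76%), with a median difference of -0.0055. IAP elements, long terminal repeat (LTR) retrotransposons of the ERVK family, carried the widest part. IAPEz-int, their internal protein-coding part, had a lowest, median and highest level over its 426 copies of 0.009, 0.346 and 6.91 FPKM in WT and of 0.731, 16.7 and 48.9 FPKM in 1KO cells. Of these copies, 424 were 2-fold higher, 405 were 4-fold higher and none was lower, and 383 stood above the highest WT copy. The mean was 0.563 FPKM in WT and 17.1 in 1KO cells, a 30.3-fold ratio, and 23.4 in 1KO+1CI cells. The share of IAPEz-int in the summed FPKM of all repeat copies was 0.0807% in WT and 2.36% in 1KO cells. Copies of the family are close in sequence and can share reads, so they are not independent, and how such reads were assigned is not stated in the labels or methods.

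The IAPEz-int mean differed less on the earlier days, at 0.727 and 7.14 FPKM on day 0 and at 0.792 and 4.70 on day 2. Its WT level therefore changed little over the days, and the 1KO level was highest on day 4. The LTRs that flank the element followed it. IAPLTR1_Mm was higher in 75 of 76 copies, with means of 1.09 and 17.3 FPKM, IAPLTR1a_Mm in 25 of 25 (0.438 and 5.32), and IAPLTR2_Mm in 17 of 21 (0.445 and 3.31). IAPA_MM-int was higher in 4 of 4 copies (0.317 and 16.0 FPKM). In contrast, IAP-d-int and IAPEY3-int had no copy past 2-fold among 17 and 13, and IAPLTR2a had 1 of 11. The largest differences in log2(FPKM + 1) included those of 2 IAPEz-int copies at 0.292 and 47.9 FPKM (7 and 1242 reads) and at 0.596 and 48.9 FPKM (11 and 979 reads).

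Outside IAP, 3 LTR families with at least 10 copies had means more than 2-fold higher on day 4. RLTR1B-int, of the ERV1 family, was higher in 41 of 49 copies, with means of 6.65 FPKM in WT and 34.3 in 1KO cells. Its means had been 5.12 and 7.10 FPKM on day 0 and 7.57 and 14.3 on day 2. RMER16-int was higher in 27 of 48 copies (2.14 and 11.5 FPKM) and LTRIS2, listed as ERV1, in 30 of 51 (2.01 and 8.93), and on day 0 their means had been 1.85 and 2.03 and 1.63 and 2.35 FPKM. MERVL-int, which is known for its expression at the 2-cell stage, had 5 of 169 copies past 2-fold, with means of 1.78 and 3.23 FPKM. MMERVK10C-int had 12 of 92 (0.803 and 1.41 FPKM).

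Young LINE-1 and SINE copies were called higher no more often than all copies. None of the 2966 copies of young LINE-1 families was higher and 11 (0.371%) were lower, against 6.77% and 3.76% of all copies. Their median level in WT cells was 0.475 FPKM, and a copy under 1 FPKM in WT cells cannot be called lower. The mean over these copies was 0.611 FPKM in WT and 0.414 in 1KO cells. L1Md_T, at 0.635 and 0.441 FPKM on average, and L1Md_A, at 0.505 and 0.291, were on the lower side. Of 17374 SINE copies 1095 (6.30%) were higher and 763 (4.39%) were lower, near the shares over all copies, and of 7707 LTR copies 866 (11.2%) were higher and 158 (2.05%) were lower. Among the 371 families with at least 10 copies, 7 had a mean that was 2-fold or more higher and none had one that was 2-fold lower. On the log2(FPKM + 1) scale the mean of the simple repeat (TCCC)n was furthest on the lower side, at 9.83 and 6.46 FPKM over 11 copies, 3 of which were 2-fold lower. The mean of Lx2B, at 7.35 and 4.78 FPKM, was next but rests on 1 copy at 121 and 75.6 FPKM, and the median of its 17 copies was at 0.178 and 0.271. Among the 23 measured genes that silence endogenous retroviruses none was 2-fold apart, with the corepressor gene Trim28 at 414 and 384 FPKM and the histone methyltransferase gene Setdb1 at 24.7 and 23.4.

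**Figure D5:**
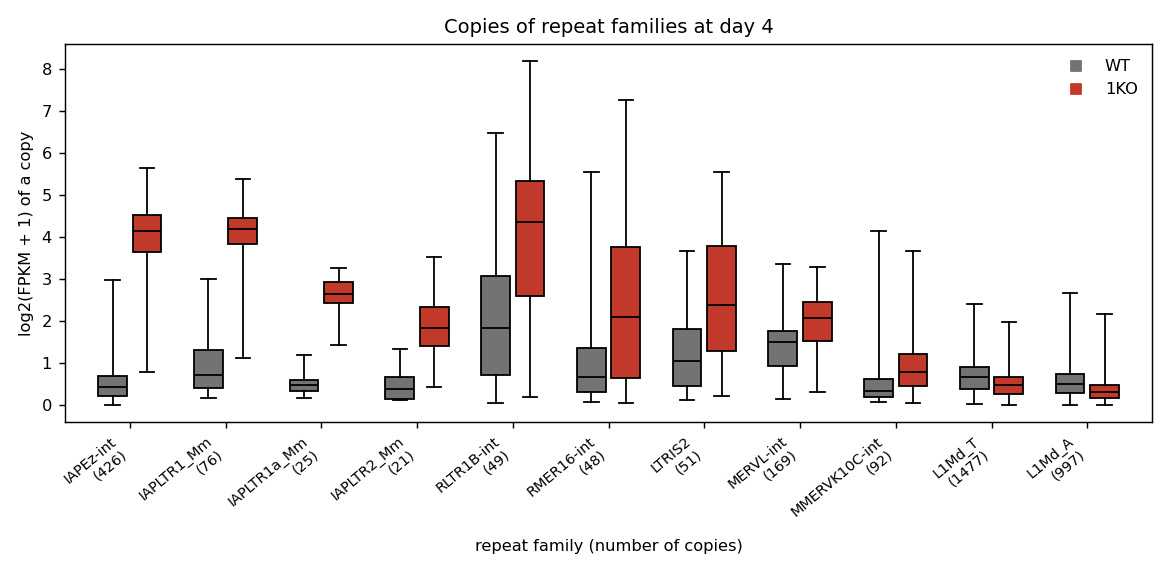
Levels of single repeat copies on day 4 as log2(FPKM + 1) (y axis) in WT (grey) and 1KO (red) cells for 11 families (x axis, number of copies in parentheses), with the box from the first to the third quartile, the line at the median and whiskers to the lowest and highest copy. The 426 IAPEz-int copies have a median of 0.346 FPKM in WT and 16.7 FPKM in 1KO cells, while the medians of L1Md_T and L1Md_A are lower in 1KO cells.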

How the data were processed

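RNA was enriched with oligo(dT) and sequenced from WT, 1KO and 1KO+1CI cells on days 0, 2 and 4, with 1 library for each of the 9 conditions. Adapter trimming (Trim Galore), alignment to mm10 (HISAT2) and scaling (HOMER) were done by the authors, whose deposited FPKM values of genes and repeat copies were used as they stand. Tool versions, strandedness of the counting and the treatment of multi-mapped reads were not stated, so overlapping and antisense genes such as Peg3 and Peg3os cannot be told apart. Of 15095 gene entries, 21 with a date or 0 in place of a symbol were left out. Whether cultures were separate is not stated.

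Differences were computed as log2(FPKM + 1), which understates the change of low genes. Of the 15074 genes, 15044 were matched to RefSeq (GRCm38.p6) by symbol or synonym for positions. Whole multiples were accepted within 0.0006 FPKM plus 0.3%, and never over 0.15 of a step. Depth was set from genes with 1 GENCODE M21 transcript, 49 of 117 with a step sharing the most frequent depth, and reads of genes with 1 transcript were estimated from it. If a step is a read pair counted as 2, counting error is larger than stated. Intervals are exact 95% binomial (Clopper-Pearson) intervals.

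Genes named were drawn from preset sets, and not every member of a set is named. The sets were the 15 largest and 15 deepest differences with at least 1 FPKM in either library, and the 10 largest and 10 deepest with at least 20 FPKM. Further sets were the extremes and 2-fold members of each list, and genes the study names. All members of the primitive streak, DNA methylation and housekeeping lists formed another set. Families were drawn from those with at least 10 copies (5 largest and 5 deepest) and from preset groups. Single copies were drawn from the 3 largest and 3 deepest. Some of these families and copies are also left unnamed. Other genes named, among them most persistent, X-linked and chromosome 8 genes and members that lay within 2-fold, were chosen after their values were seen. Members and lists were chosen with earlier results of these data known. Alternatives covered the pseudocount, filters, scaling and thresholds. The calls and the read recovery were tried on simulated data that held counting noise only. No change was planted in genes of low level, and shared reads and spread between cultures were not simulated. Python 3.11.15, numpy 2.4.6, pandas 2.3.3, scipy 1.17.1 and matplotlib 3.10.9 were used.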

Additional observations from a re-analysis of the deposited data

Results flagged for a closer look

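With 1 library per condition, 9 named genes were 2-fold apart in 1 direction on day 4 and in the other on day 0 or day 2, as differences in log2(FPKM + 1) of 1KO minus WT. The difference between the days was not tested. Over all genes, 21 of the 340 called on day 4 did so, 16 higher and 5 lower on day 4.

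Higher on day 4 and lower on day 0 were Fgf8 (3.17 and -1.14), Psmb8 (2.09 and -1.03), Gbp2b (1.78 and -1.63), Gbp2 (1.58 and -1.73), Bmp7 (1.13 and -1.54) and Gbp7 (1.06 and -1.07). Tfap2c was higher on day 4 and lower on day 2 (1.08 and -1.25). Lower on day 4 were Etv2, which had been higher on day 2 (-1.16 and 1.53), and Nqo1 on chromosome 8, which had been higher on day 0 (-1.65 and 1.19).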

How the results depend on the processing

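No paired analysis was possible because each line and day has 1 library. The counts of genes and copies depended on how low values are treated. With a pseudocount of 0.1, 747 genes were higher and 413 lower, and 6598 copies were higher and 4689 lower. With a pseudocount of 0.01 and at least 1 FPKM in either library, 543 genes were higher and 240 lower. With a common sum over genes, 472 were higher and 150 lower, since the rescaled values are larger against the pseudocount. With at least 1 FPKM in both libraries, 1026 copies were higher and 715 lower, since fewer are counted. At a difference of 2, 40 genes were higher and 6 lower, and 634 copies were higher and 48 lower. At 0.5 on the other day, 99 of the higher genes were also higher on day 0 and 127 on day 2 (10.0% and 7.09% of all genes), and 35 and 39 of the lower genes were also lower (11.1% and 7.18%). The counts under the other alternatives were within 1.5 times the main ones, in these tables. Of 31 gene lists, 4 had a median of 0.5 or more, and none of these turned direction under 4 alternatives each. Counting error limits genes under about 1 FPKM, and without replicates no spread between cultures is known.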
